A study of Mus musculus with 60 samples.

Results

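Imprinted genes are genes of which mainly the copy from one parent is read. The 48 described here were chosen by symbol as known mouse imprinted genes, and all 48 were found among the 23127 genes of the deposited RNA count table. They fall into 18 imprinted regions on 9 chromosomes, with 22 genes on chromosome 7. Of the 48, 24 are known to be read mainly from the paternal copy and 24 mainly from the maternal copy, for some only in placenta, brain or certain isoforms. The RNA came from embryos of the outbred ICR mouse strain that were cultured as explants for 48 hours in N2B27, a serum-free medium. EPZ005687, which inhibits EZH2, was given to one arm and an equal volume of its solvent DMSO to the other. EZH2 is the enzyme of Polycomb repressive complex PRC2 that places the repressive histone mark H3K27me3. Each arm gave 1 library of poly(A) RNA from the anterior embryonic part (A), 1 from the posterior embryonic part (P) and 1 from the extraembryonic part (ExE), 6 of the 60 samples in the series. The labels give neither the stage of these embryos nor the number in a library, and the other 54 samples were not analysed here.

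At most imprinted regions a stretch of DNA is methylated in only one of the parental germ lines, and that mark is kept in the embryo when methylation elsewhere is erased. The zinc finger protein ZFP57 binds methylated copies of the hexamer TGCCGC and recruits TRIM28, which holds the mark in place. Some regions add long non-coding RNAs: Airn silences the paternal Igf2r copy, and Kcnq1ot1 silences a chromosome 7 domain in which PRC2 acts in the placenta. A small class of paternally read genes, Slc38a4 among them, is instead imprinted by maternal H3K27me3 in the early embryo. Many imprinted genes set growth of the embryo and placenta, with the growth factor Igf2 on one side and its clearance receptor Igf2r on the other. The counts do not separate the parental copies, so a level below is the sum of both.

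RefSeq gene starts on GRCm38.p6, the same assembly as the mm10 build named by the submitters, gave 59 windows of 250 bases before to 50 bases after a start, for 39 of the 48 genes. A member window held a median of 14 CpG, the dinucleotide at which mammalian DNA is methylated, against 7 over all 32851 windows of the table. The letters TGCCGC, sought on both strands, were in 14 of the 59 member windows (23.7%) and in 11.6% of all windows. TGCCGC itself holds a CpG, so its share is not separate from the higher CpG number of member windows. The shares were not compared at equal CpG. Windows of one gene can overlap, so the 59 are not independent. To show how different these start sites are in CpG, a promoter of each of 5 genes is printed below; Igf2r and Peg12 are called in the treatment comparison, Phlda2, Mest and Slc38a4 passed no test in the main fit but stand out in single regions or between regions, and no window of Impact or H19 is shown. Printed 5′ to 3′ on the gene's strand with CpG in capitals, they belong to the receptor gene Igf2r, the Frat family gene Peg12, the placental growth restrainer Phlda2, the alpha/beta hydrolase-fold gene Mest and the amino acid transporter gene Slc38a4.
Igf2r, chr17:12769657-12769956, minus strand: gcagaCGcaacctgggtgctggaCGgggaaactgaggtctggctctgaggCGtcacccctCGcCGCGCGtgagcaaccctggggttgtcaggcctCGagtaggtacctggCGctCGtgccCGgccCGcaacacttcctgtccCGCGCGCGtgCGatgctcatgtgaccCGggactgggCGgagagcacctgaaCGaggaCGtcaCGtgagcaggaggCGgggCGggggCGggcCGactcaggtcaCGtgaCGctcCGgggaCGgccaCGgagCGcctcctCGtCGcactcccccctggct
Peg12, chr7:62464461-62464760, minus strand: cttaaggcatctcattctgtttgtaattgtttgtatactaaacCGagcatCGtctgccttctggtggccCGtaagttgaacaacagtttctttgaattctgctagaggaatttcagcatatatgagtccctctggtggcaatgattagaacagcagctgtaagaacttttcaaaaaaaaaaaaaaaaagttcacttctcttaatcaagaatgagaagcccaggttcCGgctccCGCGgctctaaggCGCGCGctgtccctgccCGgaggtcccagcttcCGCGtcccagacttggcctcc
Phlda2, chr7:143502475-143502774, minus strand: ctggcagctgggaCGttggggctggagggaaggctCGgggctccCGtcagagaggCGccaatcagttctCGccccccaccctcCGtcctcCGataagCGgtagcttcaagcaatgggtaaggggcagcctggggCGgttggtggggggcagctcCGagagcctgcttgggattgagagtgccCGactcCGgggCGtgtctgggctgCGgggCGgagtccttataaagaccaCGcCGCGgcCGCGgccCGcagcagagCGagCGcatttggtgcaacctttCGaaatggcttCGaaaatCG
Mest, chr6:30737800-30738099, plus strand: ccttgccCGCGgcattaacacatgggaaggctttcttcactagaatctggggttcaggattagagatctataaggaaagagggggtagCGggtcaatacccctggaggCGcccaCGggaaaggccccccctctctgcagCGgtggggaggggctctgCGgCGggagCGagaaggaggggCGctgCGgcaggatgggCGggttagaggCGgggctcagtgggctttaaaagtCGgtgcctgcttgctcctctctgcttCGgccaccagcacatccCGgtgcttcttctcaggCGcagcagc
Slc38a4, chr15:97055907-97056206, minus strand: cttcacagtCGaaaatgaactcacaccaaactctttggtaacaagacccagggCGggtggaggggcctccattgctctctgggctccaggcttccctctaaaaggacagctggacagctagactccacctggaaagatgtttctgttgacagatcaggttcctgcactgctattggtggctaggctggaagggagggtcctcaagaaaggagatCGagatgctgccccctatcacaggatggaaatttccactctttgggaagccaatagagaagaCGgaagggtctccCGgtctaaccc
For Mest and Slc38a4 the window shown is 1 of 3 of the gene. The Igf2r window held 34 CpG, that of Phlda2 26, that of Mest 17 and that of Peg12 12. The window of Slc38a4, which belongs to the H3K27me3-dependent class, held 5. Of these 5 windows, the Mest window alone held TGCCGC, with 2 matches. A match is a description of the letters and not of binding.

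Levels are given as normalised CPM, that is counts scaled to a common library size with TMM factors, and 3 values in a row are those of A, P and ExE in that order unless named otherwise. Totals ran from 1000342 to 2173284 counts per library with EPZ005687 and from 1780304 to 5812535 counts with DMSO. Where no read was counted, counting error alone allows 3 counts, which is 1.22 to 2.38 normalised CPM with EPZ005687 and 0.674 to 1.79 with DMSO. Several features of the libraries moved with the arm. Actb, cytoplasmic actin, stood between 657 and 1328 CPM with EPZ005687 and between 44698 and 52009 CPM with DMSO. The ribosomal RNA precursor Rn45s took 0.521% to 6.54% of counts with EPZ005687 and 0.0538% to 0.109% with DMSO. The Y-linked gene Eif2s3y had 56.98 to 225 CPM with EPZ005687 and at most 0.172 CPM with DMSO, and Xist, the RNA of the inactive X chromosome, had 6.90 to 40.1 CPM against 134 to 258 with DMSO; the labels give no sex. A code in the column names was shared within an arm and differed between arms, so whatever it stands for cannot be told apart from the treatment. Marker genes were set against the region labels as well. Anterior neural markers (12 genes) summed to 650, 165 and 14.7 normalised CPM with EPZ005687 and to 2674, 151 and 44.3 with DMSO, highest in A as labelled. Streak and mesoderm markers summed to 174, 88.4 and 16.7 against 14.3, 32.4 and 2.70, parietal endoderm markers to 559, 1991 and 3746 against 317, 2034 and 15056, and extraembryonic mesenchyme markers to 147, 691 and 514 against 202, 1534 and 2254. The gene Ahnak carried most of the mesenchyme sum in P and ExE with DMSO, and without it, a split made after the values were seen, the other 11 markers summed to 126, 479.9 and 293 against 139.5, 298 and 59.6. The streak gene T, however, had 161 in A and 50.7 in P with EPZ005687. Trophoblast markers summed to 1205, 1577 and 4619 against 106, 2850 and 4474, highest in ExE in both arms. Without the keratin genes Krt7, Krt8 and Krt18 they summed to 60.4, 423 and 643 against 51.3, 614 and 1025. In ExE the gene Rhox5 alone held 521 normalised CPM of the latter sum with EPZ005687 and 866 with DMSO. Of the others Ets2 had 70.9 and 119 there, and Tead4 17.1 and 9.89. The trophoblast regulators Elf5, Esrrb, Tfap2c, Hand1 and Eomes stood at 5.70 normalised CPM or less in both ExE libraries. The trophoblast regulator Cdx2, a gene of this list, had 0 counts in both ExE libraries. ExE was rich in the visceral endoderm gene Afp, at 8255 normalised CPM with EPZ005687 and 20644 with DMSO. In bulk tissue, fewer cells of a type and less RNA per cell cannot be told apart.

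**Figure D1:**
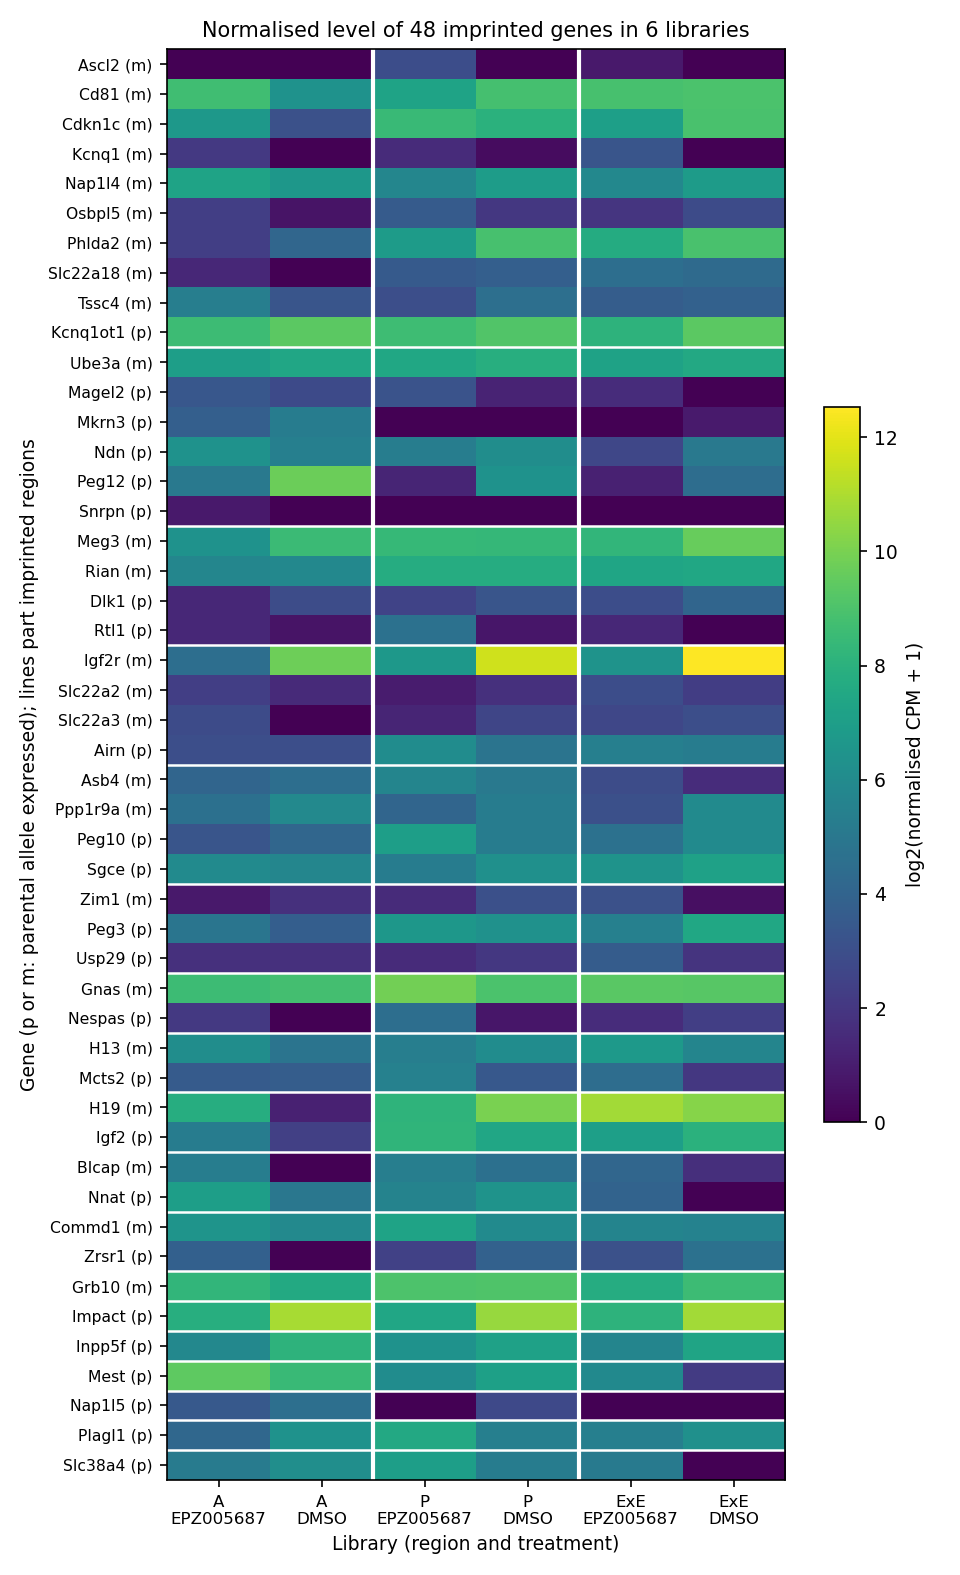
Level of the 48 imprinted genes in the 6 libraries, as log2(normalised CPM + 1) by colour. Each row is a gene, marked m or p for the parental copy known to be read, white lines part the imprinted regions, and each pair of columns is a region with EPZ005687 left of DMSO. Igf2r and Impact are darker with EPZ005687 than with DMSO in every region, and H19 is dark in A with DMSO.

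The treatment comparison asks which imprinted genes differed between the EPZ005687 and DMSO arms across the 3 regions. Of the 48 genes, 44 had at least 10 counts in 2 or more libraries and were tested together with all other genes. Igf2r, Peg12 and Impact fell with EPZ005687 (3 of 44, or 6.82%, edgeR quasi-likelihood test, Benjamini-Hochberg adjusted p under 0.05), where 1.48% of all 13744 tested genes fell and 1.53% changed in either direction. None of the 44 passed in the higher direction, where 0.0509% of all genes did. With P DMSO left out 6 passed, with H19, Mest and Nnat added, and 2.5% of all genes did. At an unadjusted p under 0.05 there were 7 of the 44 (15.9%) against 8.87% of all genes. The log2 fold change was positive for 22 of the 44 (50%, against 56.7% of all genes), with a median of -0.01 beside 0.20 over all tested genes. With library totals as the scaling these medians were 0.44 and 0.63, and 30 of the 44 were positive, so the sign of the members' median depends on the scaling and its place below that of all genes does not.

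Igf2r, whose product binds Igf2 at the cell surface and carries it to lysosomes, lies on chromosome 17 (12682406 to 12769706) and is read from the maternal copy. Its level was 22.2, 100.4 and 85.1 normalised CPM with EPZ005687, against 867, 3191 and 5925 with DMSO. Every EPZ005687 library lay below every DMSO library, by 39.0-fold in A, 31.8-fold in P and 69.6-fold in ExE. Over regions the level was 69.2 ± 41.4 with EPZ005687 and 3328 ± 2532 with DMSO (SD over 3 regions, which are not repeats). The fitted log2 fold change was -5.47 (SE 0.72, edgeR adjusted p = 0.0048), rank 10 by size among the 210 genes called in either direction. It passed under all 15 alternatives to the fit, with log2 fold changes between -5.69 and -5.04. Airn, the non-coding RNA that starts inside Igf2r on the other strand (chromosome 17, 12741311 to 12859884), had 7.15, 68.4 and 41.5 normalised CPM with EPZ005687 and 7.15, 27.01 and 37.1 with DMSO. The arms overlapped for Airn and its log2 fold change was 0.53 (SE 0.71, edgeR adjusted p = 0.90). Whether the counting used strand is not given in the sources used here, so reads over the shared stretch cannot be assigned to either. The organic cation transporter genes Slc22a2 and Slc22a3 of the same region, maternally read in placenta, stood at 7 normalised CPM or less in each library and overlapped between arms.

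Peg12 is a paternally read gene without introns in the Snrpn region (chromosome 7, 62461871 to 62464510) whose product belongs to the Frat family of Gsk3-binding proteins. Its level was 32.6, 1.43 and 1.22 normalised CPM with EPZ005687, against 827, 82.7 and 21.1 with DMSO. Within each region the EPZ005687 library was the lower one, but the arms overlapped because A with EPZ005687 lay above ExE with DMSO. The P and ExE libraries with EPZ005687 held 3 counts each, and the log2 ratio was -5.22 in P (95% counting interval -8.14 to -4.29) and -3.44 in ExE (-6.42 to -2.52). With region in the fit its change was -4.83 on the log2 scale (SE 0.63, edgeR adjusted p = 0.0048). Without the region term the edgeR adjusted p was 0.28, and under the other 14 alternatives Peg12 passed. Its neighbours in the region did not pass: the necdin gene Ndn differed by -0.80 on the log2 scale (SE 0.79, edgeR adjusted p = 0.86) and the MAGE family gene Magel2 2.39 (SE 1.79, edgeR adjusted p = 0.81). The makorin gene Mkrn3 was seen almost only in A, with 12.7 normalised CPM with EPZ005687 and 37.0 with DMSO, and had 4 counts or fewer in each P and ExE library. Snrpn itself, whose locus is shared with Snurf and Snhg14, had 1 count in A with EPZ005687 and 0 in the other 5 libraries and was not tested.

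Impact, a paternally read gene on chromosome 18 whose product restrains the stress kinase Gcn2, was even across regions in both arms. It had 233, 168 and 275 normalised CPM with EPZ005687, against 1905, 1558 and 1779.98 with DMSO. The arms did not overlap, and the level was 8.18-fold lower in A, 9.29-fold lower in P and 6.48-fold lower in ExE. Its log2 fold change was -2.98 (SE 0.58, edgeR adjusted p = 0.022). This call was lost in edgeR with library totals (adjusted p = 0.079), without A EPZ005687 (0.13), without ExE EPZ005687 (0.055), without A DMSO (0.10) and with A and P only (0.11), while the log2 fold change stayed between -3.12 and -2.55.

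**Figure D2:**
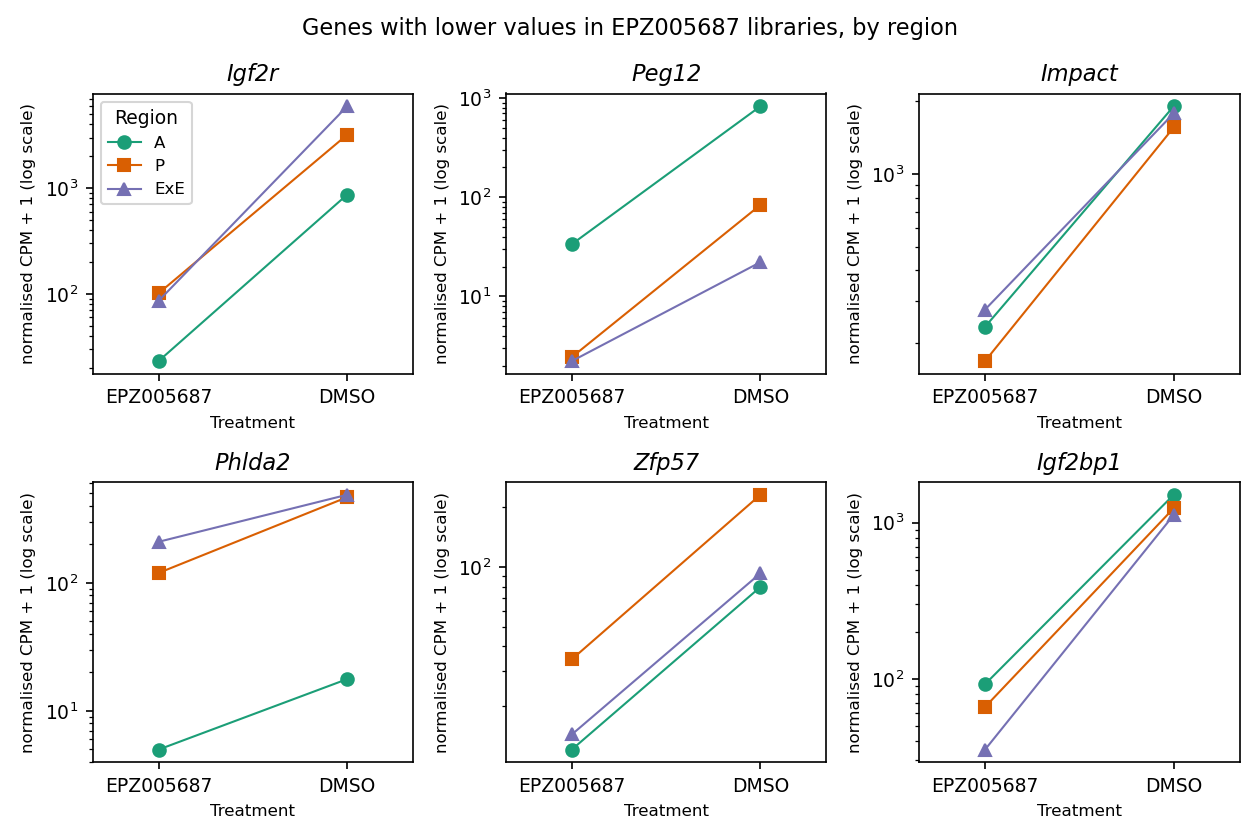
Normalised CPM + 1 on a log axis in the EPZ005687 library, left, and the DMSO library, right, of each region for 6 genes with lower values with EPZ005687; each point is 1 library and lines join the libraries of a region. For Igf2r and Impact all 3 points with EPZ005687 lie below all 3 with DMSO, and for Peg12 and Phlda2 each region is lower with EPZ005687 while the arms overlap.

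Besides Igf2r and Impact, the EPZ005687 libraries lay below all DMSO libraries for Kcnq1ot1, Ppp1r9a and Inpp5f, so that 5 of 44 (11.4%) did so against 8.75% of all genes. None of the 44 lay above in every library, against 8.82% of all genes. Genes below the count filter that did were the potassium channel gene Kcnq1 with 4, 4 and 22 counts with EPZ005687 and 0, 1 and 0 with DMSO, and the retrotransposon-derived gene Rtl1 with 2, 51 and 4 against 1, 2 and 0. Rtl1 shares its locus with the antisense RNAs Meg3 and Rian, and Kcnq1 with Kcnq1ot1. Kcnq1ot1 had 381, 399.6 and 278 normalised CPM with EPZ005687 against 668, 561 and 661 with DMSO (log2 fold change -0.85, SE 0.50, edgeR adjusted p = 0.73). Inpp5f, an inositol phosphatase gene with an imprinted brain isoform, had 56.4, 84.1 and 50.9 normalised CPM against 272, 145 and 159.6 (log2 fold change -1.56, SE 0.53, edgeR adjusted p = 0.30). Ppp1r9a, which encodes the actin-binding protein neurabin, had 23.8, 15.8 and 7.33 against 58.4, 37.8 and 63.4 (log2 fold change -1.86, SE 0.73, edgeR adjusted p = 0.44). These 3 differences did not pass the test across all genes.

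Among genes of the Kcnq1 domain, Phlda2 had the smallest p-value in the treatment comparison. It had 3.97, 119 and 209 normalised CPM with EPZ005687, against 16.7, 467 and 488 with DMSO. Each region was lower with EPZ005687, but the low level in A made the arms overlap, and the log2 fold change of -1.72 (SE 0.52) had an edgeR adjusted p of 0.20. The remaining tested genes of the domain (Cdkn1c, Slc22a18, Osbpl5, Cd81, Tssc4, Nap1l4 and Kcnq1ot1) had log2 fold changes between -0.85 and 1.06. Ascl2, a transcription factor gene needed for trophoblast, had 0, 14 and 2 counts with EPZ005687 and 0, 0 and 0 with DMSO and was not tested. The 14 counts in P with EPZ005687 are at least 6.61-fold above the 3 counts that 0 allows in P with DMSO.

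On the higher side the smallest p-values were those of Blcap, Mcts2 and Nnat (log2 fold change 1.99, SE 1.21, edgeR adjusted p = 0.74). Blcap, a small membrane protein gene that contains the paternally read Nnat within it, had 38.1, 40.2 and 16.7 normalised CPM with EPZ005687 against 0, 24.0 and 2.25 with DMSO (log2 fold change 3.01, SE 1.30, edgeR adjusted p = 0.52). In A its 48 counts with EPZ005687 were at least 21.3-fold above the floor for the 0 counts with DMSO. Mcts2, a retrogene inside H13, had 11.1, 44.9 and 21.6 against 11.9, 9.79 and 3.15 (log2 fold change 1.67, SE 1.03, edgeR adjusted p = 0.74). For Blcap each region was higher with EPZ005687, and for Mcts2 P and ExE were. The arms overlapped for both, and the counts of Blcap and Nnat, which lie one within the other, are uncertain if strand was not used. Nespas, the antisense transcript of Gnas, had 46 counts in P with EPZ005687 against 2 with DMSO, but 5 in ExE with EPZ005687 against 18 with DMSO.

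**Figure D3:**
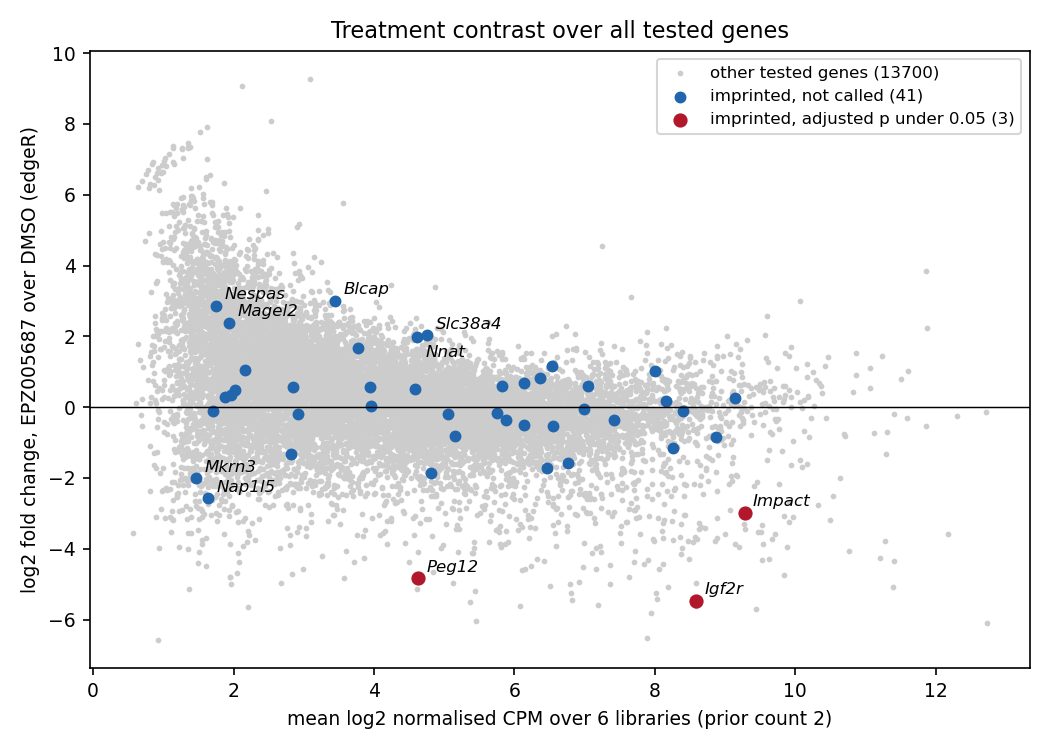
Fitted log2 fold change, EPZ005687 over DMSO, against mean log2 normalised CPM over the 6 libraries for the 13744 tested genes; each point is a gene, and the 44 imprinted genes are in blue, or in red where the adjusted p is under 0.05. The 3 red points lie between -5.47 and -2.98, and the blue points lie on both sides of 0.

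Genes that act with imprinted genes were tested in the same fit. Of all tested genes 1.53% passed there, and 8.75% had all EPZ005687 libraries below all DMSO libraries. Of 20 genes for keeping imprints (ZFP57, TRIM28, DNA methyltransferases, PRC2 and related factors), 19 were tested and 1 passed. Ctcf, Dnmt3a, Ehmt1, Ezh2 and Suz12 of this list were not called, but their EPZ005687 libraries lay below all DMSO libraries. Zfp57 had 11.1, 33.5 and 13.4 normalised CPM with EPZ005687 against 78.7, 231 and 92.4 with DMSO, all 3 below all 3, and its fitted change was -2.79 on the log2 scale (SE 0.55, edgeR adjusted p = 0.025). That call was lost under 9 of 15 alternatives, each single left-out library among them, with an edgeR adjusted p of up to 0.14, while the log2 fold change stayed between -2.82 and -2.36. Its partner Trim28 differed by 0.32 on the log2 scale, the maintenance methyltransferase gene Dnmt1 by 0.49, the target of the drug Ezh2 by -1.22 (SE 0.48, edgeR adjusted p = 0.45) and its PRC2 partner Eed by 0.20, and 4 of the 19 were positive with a median of -0.55 beside 0.20 over all genes (7 and -0.11 beside 0.63 with library totals). Among 19 genes of the insulin-like growth factor pathway, 18 were tested and Igf2bp1, which encodes an RNA-binding protein that binds Igf2 mRNA, was the one that passed. It had 91.4, 65.0 and 34.2 normalised CPM with EPZ005687 against 1510.1, 1238 and 1120.4 with DMSO (log2 fold change -4.44, SE 0.60, edgeR adjusted p = 0.0051), and it passed under all 15 alternatives. Its relatives Igf2bp2 and Igf2bp3 had log2 fold changes of -0.17 and -1.93 and the type 1 receptor gene Igf1r 0.04, none past the threshold in the main fit. Igf2bp3 had 216, 150 and 100 normalised CPM with EPZ005687 against 783, 407 and 565 with DMSO, all 3 below all 3. It passed under 3 alternatives, DESeq2 (adjusted p = 0.0098) and limma-voom (adjusted p = 0.012) among them. These 2 tools called 428 and 365 of all genes as lower. Igf1 of the same pathway was not called in the main fit but was also lower, all 3 below all 3. It had 18.3, 6.69 and 13.4 normalised CPM with EPZ005687 against 86.4, 277 and 35.5 with DMSO. Of 30 tested imprinted genes outside the 48, none passed (0 of 30, log2 fold changes -4.26 to 4.09), which is near the share of all genes. Klf14 among them had 0.795, 0.956 and 16.7 normalised CPM with EPZ005687 against 19.1, 147.5 and 64.7 with DMSO, all 3 below all 3. Trpm5, Atp10a and Ago2 had all EPZ005687 libraries above all DMSO libraries. The other genes imprinted through maternal H3K27me3 were not called either, with log2 fold changes of -0.14 for Sfmbt2, 0.34 for Gab1, -1.14 for Jade1 and 1.32 for Smoc1.

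Within single regions, where 1 library stands against 1 and no test is possible, a log2 ratio of 2 or more was found for 10 of the 44 in A (22.7%, against 18.1% of all genes), 4 in P (9.09%, against 11.3%) and 6 in ExE (13.6%, against 16.7%). A log2 ratio of -2 or less was found for 6 in A (13.6%, against 8.39%), 4 in P (9.09%, against 11.5%) and 5 in ExE (11.4%, against 7.94%). Igf2r, Peg12 and Impact were in the lower set of all 3 regions, and no gene was in the higher set of all 3. These shares were near those of all genes and are no result about imprinted genes as a group.

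The largest single ratio belonged to H19, the maternally read non-coding RNA next to Igf2 (chromosome 7, 142575530 to 142578146). It had 222, 282 and 1749 normalised CPM with EPZ005687, against 1.19, 1034 and 1237 with DMSO. A was the region with the far higher value with EPZ005687, at a log2 ratio of 6.80 (95% counting interval 5.67 to 10.59) over the 2 counts with DMSO, while P was lower at -1.87 and ExE higher at 0.50. Igf2, which shares enhancers with H19, had 37.3, 289 and 134 normalised CPM with EPZ005687, against 4.17, 168 and 255 with DMSO. Its log2 ratio was 2.94 in A, 0.78 in P and -0.93 in ExE. Cdkn1c, a maternally read inhibitor of cyclin-dependent kinases, followed the same order of regions, with 103, 356 and 136 normalised CPM against 7.75, 259 and 488 and log2 ratios of 3.59, 0.46 and -1.84. Cd81, a tetraspanin gene of the Kcnq1 domain, had 408, 152 and 475 against 82.3, 454 and 498. These genes had in common that A with DMSO was the lowest of the 6 libraries. Visceral endoderm markers were likewise low there: the 12 genes summed to 3279, 8484 and 20863 normalised CPM with EPZ005687 and to 78.7, 14336 and 42548 with DMSO, with 4 of the 12 at 0 in A with DMSO and none at 0 in the other libraries. In A, 11 of the 12 were higher with EPZ005687, at a median log2 ratio of 3.55, against 5 in P (median -0.16) and 1 in ExE (median -1.06). Trophoblast markers summed to 1205 in A with EPZ005687 and 106 in A with DMSO, with 1 and 8 of 16 at 0, but the keratin genes Krt7, Krt8 and Krt18 made up 1144 and 54.3 of these sums, the other 13 markers summing to 60.4 against 51.3. Of the 12 tested trophoblast markers, 9 were higher with EPZ005687 in A and 3 lower, at a median log2 ratio of 1.68. The trophoblast regulator Cdx2 was among the lower ones in A, with 0 against 18.5 normalised CPM, as was Gata3 with 0.795 against 5.96. The part of these cell types in the ratios was not tested.

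A further set of genes differed most in ExE, and each was lowest in the ExE library with DMSO. Slc38a4 had 36.6, 129 and 35.4 normalised CPM with EPZ005687, against 72.1, 37.8 and 0 with DMSO. Its 87 counts in ExE with EPZ005687 were 52.6-fold above the floor for 0 counts (95% counting interval of the log2 ratio from 5.39), whereas A was lower with EPZ005687. Nnat, which encodes a small protein of the endoplasmic reticulum, had 129, 47.3 and 14.7 against 30.4, 86.8 and 0. In ExE it was 21.7-fold above the floor for 0 counts, and the 95% counting interval of its log2 ratio started at 4.07. Mest, a paternally read gene with high expression in mesoderm, had 691, 67.4 and 60.7 against 362, 137 and 3.60, a log2 ratio of 3.80 in ExE (95% counting interval 3.33 to 4.92), 0.93 in A and -1.02 in P. Blood and endothelium markers were far apart in the same pair of libraries, at a sum of 28378 normalised CPM in ExE with EPZ005687 and 585 in ExE with DMSO, with 0 and 2 of 12 at 0. In P they lay the other way, at 1464 with EPZ005687 and 9897 with DMSO, with 2 and 0 at 0. In ExE 11 of the 12 were higher with EPZ005687 (median log2 ratio 4.58), as were 8 of the 10 tested mesenchyme markers (median 2.55). The other 2, Ahnak and Bmp4, were lower, Ahnak at 222 normalised CPM against 2195 with DMSO. The mesenchyme sum therefore lay the other way in ExE, at 514 with EPZ005687 and 2254 with DMSO. Without Ahnak it was 293 against 59.6. The part of these cells in the ratios was not tested. Plagl1, a paternally read zinc finger gene, differed in opposite directions within the embryonic part, with 17.5, 191 and 41.9 normalised CPM with EPZ005687 against 82.3, 40.8 and 78.2 with DMSO.

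**Figure D4:**
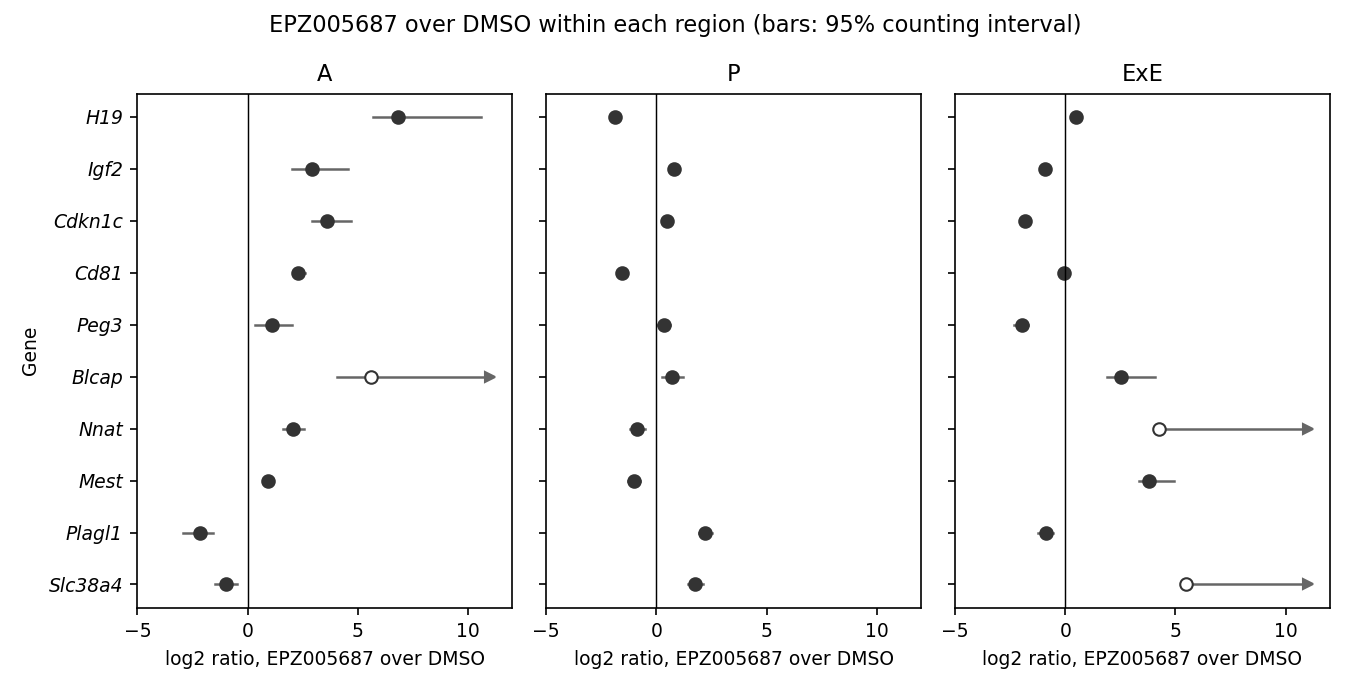
Log2 ratio of EPZ005687 over DMSO in A, P and ExE for 10 imprinted genes; points are 1 library against 1, bars are 95% counting intervals, and open points with arrows mark 0 counts with DMSO. H19 is at 6.80, -1.87 and 0.50, and Igf2 and Cdkn1c lie above 0 in A and below 0 in ExE.

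A formal comparison of the treatment effect in ExE with that in the embryonic part, from a fit with 1 residual degree of freedom, called none of the 44 genes, and 0.0509% of all genes. At an unadjusted p under 0.05 there were 4 of the 44 (9.09%, against 3.75% of all genes). Slc38a4 had a difference of 9.05 on the log2 scale (SE 2.35, edgeR adjusted p = 0.12), Nnat 7.60 (SE 2.37, edgeR adjusted p = 0.55), Mest 4.10 (SE 1.46, edgeR adjusted p = 0.95) and Cdkn1c -3.84 (SE 1.46, edgeR adjusted p = 1). The fitted values of Slc38a4 and Nnat depend on the small count added to the 0 in ExE with DMSO and are no bound. DESeq2 (0.116% of all genes called) and limma-voom (0.0437%) also called 0 of the 44. The smallest p-values in the negative direction after Cdkn1c were those of Igf2 (-2.76, SE 1.41) and Peg3 (-2.73, SE 1.48). Peg3, a paternally read zinc finger gene, had 27.8, 99.9 and 43.6 normalised CPM with EPZ005687 against 12.5, 78.7 and 175 with DMSO.

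ExE was compared with the embryonic parts because the series concerns the parting of these lineages. No imprinted gene passed (0 of 44), nor did any of the 13744 genes (0%, edgeR; 882 genes, 6.42%, and 11 of the 44, 25%, had an unadjusted p under 0.05). DESeq2 called 4 of the 44 (Mest, Nnat, Peg12 and Phlda2) where it called 1.76% of all genes, and limma-voom 2 (Mest and Peg12) where it called 0.255%. In edgeR 6 passed with A EPZ005687 left out (2.86% of all genes), 5 with P DMSO left out (2.71%), 3 with ExE EPZ005687 left out (0.443%) and 5 with no count filter (0.953%), so calls appeared among genes in general. Phlda2 had the smallest p on the higher side, with 209, 119 and 3.97 normalised CPM in ExE, P and A with EPZ005687 and 488, 467 and 16.7 with DMSO (log2 fold change 2.86, SE 0.51, edgeR adjusted p = 0.13). It is known in mouse as a placental gene whose loss enlarges the placenta. In both arms ExE was the highest region for it and A by far the lowest. H19 (log2 fold change 2.54, SE 1.07) and Igf2 (1.84, SE 0.73) followed, with edgeR adjusted p of 0.73 and 0.69. On the lower side Peg12 had 1.22 in ExE, 1.43 in P and 32.6 in A with EPZ005687 and 21.1, 82.7 and 827 with DMSO (log2 fold change -3.28, SE 0.71, edgeR adjusted p = 0.21). Mest (-3.44, SE 1.01, edgeR adjusted p = 0.36) and Nnat (-4.29, SE 1.37, edgeR adjusted p = 0.45) were lowest in ExE in both arms too. The median log2 fold change was 0.32 over the 44 and 0.03 over all genes, 0.63 over the 22 maternally read genes with 14 positive, and -0.29 over the 22 paternally read ones with 10 positive. These signs were the same for the 44 and for both subsets with library totals. Cell type markers moved with this contrast too: 12 of 12 visceral endoderm markers were positive (median 2.87), 10 of 10 parietal endoderm markers (3.17) and 9 of 12 tested trophoblast markers (1.54), against 0 of 11 tested anterior neural markers (-5.04), and their part in it was not tested. In all, 7 of 44 were above A and P in both arms (15.9%, against 14.2% of all genes): H19, Slc22a2, Phlda2, Slc22a18, Cd81, Sgce and Dlk1. Below A and P in both arms were 8 (18.2%, against 12.7%): Asb4, Mest, Peg12, Ndn, Magel2, Commd1, Nnat and Slc38a4. Sgce, the epsilon-sarcoglycan gene beside Peg10, had 86.3, 36.8 and 62.8 normalised CPM in ExE, P and A with EPZ005687 and 141, 77.3 and 52.5 with DMSO. Peg10, a retrotransposon-derived gene that the mouse placenta needs, had 24.8, 130.5 and 8.74 with EPZ005687 and 63.4, 37.1 and 16.7 with DMSO, so ExE was highest with DMSO only. Dlk1, a Notch-ligand-like gene, stayed low, at 6.92, 4.78 and 1.59 with EPZ005687 and 16.0, 8.78 and 6.56 with DMSO.

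P and A, the embryonic parts, were compared last. No gene passed in edgeR (0 of 44, and 0% of all genes; 744 genes, 5.41%, and 11 of the 44, 25%, had an unadjusted p under 0.05), DESeq2 called 4 of the 44 (Igf2, Mkrn3, Peg12 and Phlda2) and 1.31% of all genes, and limma-voom 0 of the 44 and 0.167%. In edgeR 6 passed with P DMSO left out (1.74% of all genes), 5 with A EPZ005687 left out (1.67%), 4 with ExE DMSO left out (0.728%), 3 with ExE EPZ005687 left out (0.586%), 1 with P EPZ005687 left out (0.125%), 0 with A DMSO left out and 3 with no count filter (0.636%), so here too calls appeared among genes in general. Phlda2 was higher in P by 4.81 on the log2 scale (SE 0.71, edgeR adjusted p = 0.078), and Igf2 by 3.69 (SE 0.91, edgeR adjusted p = 0.36). Igf2 had 289 in P and 37.3 in A with EPZ005687 and 168 and 4.17 with DMSO. Rian, a non-coding RNA that hosts small RNAs, was nearly the same in the arms and differed between the parts, with 215 in P and 52.4 in A with EPZ005687 and 217 and 56.0 with DMSO (log2 fold change 1.99, SE 0.60, edgeR adjusted p = 0.56). Its neighbour Meg3 had 332 and 83.4 with EPZ005687 but 322 and 368 with DMSO (0.93, SE 0.70, edgeR adjusted p = 0.93). Peg12 was lower in P (-3.68, SE 0.70, edgeR adjusted p = 0.20), and Mest had 67.4 in P and 691 in A with EPZ005687 and 137 and 362 with DMSO (-2.0, SE 0.96, edgeR adjusted p = 0.91). Mkrn3, at 0 counts in both P libraries and 16 and 62 in A, had a fitted value of -9.17 (SE 2.60, edgeR adjusted p = 0.53), which depends on the added count and is no bound. P was above A in both arms for 20 of the 44 (45.5%, against 31.5% of all genes) and below in both for 7 (15.9%, against 23.2%). The median log2 fold change was 0.57 over the 44 and 0.12 over all genes, with 29 positive (65.9%, against 54.1%). It was 0.98 over the 22 tested maternally read genes, 18 of them positive, and 0.01 over the 22 paternally read ones, 11 of them positive. With library totals these 2 medians were 0.70 and -0.22, beside -0.11 over all genes. Neighbours in an imprinted region are not independent points. Cell type markers moved with this contrast: 12 of 12 blood and endothelium markers were positive (median 4.03), 12 of 12 visceral endoderm markers (3.33), 10 of 10 parietal endoderm markers (2.04) and 10 of 12 tested trophoblast markers (1.81), against 1 of 11 tested anterior neural markers (-2.69), and their part in it was not tested.

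Among growth and signalling genes with fitted changes near 0, single regions did differ. Grb10, an adaptor that restrains growth factor receptors, had 308, 519.6 and 214 normalised CPM with EPZ005687 against 198, 539 and 391 with DMSO (log2 fold change between arms -0.10, SE 0.52, edgeR adjusted p = 0.98). Gnas, which encodes the stimulatory G protein subunit from several promoters, had 391, 946 and 639 against 439, 498 and 615 (0.27, SE 0.52, edgeR adjusted p = 0.94). The arms overlapped for each gene. Grb10 was higher with EPZ005687 in A (log2 ratio 0.64, 95% counting interval 0.42 to 0.86) and lower in ExE (-0.87, -1.01 to -0.73), and Gnas was higher in P (0.92, 0.83 to 1.02). Ube3a, a ubiquitin ligase gene that is imprinted in neurons, had 129.5, 174 and 149 against 169, 227 and 187. Counting Ube3a, 21 of the 48 genes were not among those chosen for full values, and the 20 of them that were tested had log2 fold changes between -2.56 (Nap1l5) and 2.39 (Magel2), none past the threshold.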

How the data were processed

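The deposited table holds, per gene and library, whole-number counts that the authors did not normalize, as the unequal library totals show. Tools named in the submitters' processing notes are CASAVA 1.8, TopHat2 2.0.9 and BWA, with genome build mm10; no source used here names the counting tool, the gene annotation or the use of strand. Of 23154 entries, 27 with dates in place of symbols were left out. The 48 members, the gene lists and the tests were chosen with earlier results of these data known.

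A gene was tested where at least 2 libraries held 10 counts (13744 genes). After TMM scaling, an additive model of region and treatment was fitted with edgeR 4.0.16 under R 4.3.3, leaving 2 residual degrees of freedom. An added term for treatment in ExE left 1 residual degree of freedom. Benjamini-Hochberg adjustment ran over all tested genes, with a threshold of 0.05; each SE was taken from the fold change and its F statistic. Each region and treatment has 1 library and nothing says that libraries came from separate cultures, so that a p-value reflects only how much these libraries vary, which may be technical. Ratios within a region used a prior count of 2 and conditional exact binomial intervals (95%), which like the floor of 3 counts cover counting error only. Simulated data gave each gene 1 level over all libraries apart from the set change, with a spread taken from genes of similar level. They held no other region differences and no spread of a gene's own, so recovery in the real data may differ. In them the treatment comparison recovered 0 of 50 changes of 2-fold, 5 of 4-fold, 19 of 8-fold and 42 of 32-fold. Of 50 changes of 8-fold, ExE versus embryonic recovered 14 and P versus A 7. The difference in treatment effect recovered 1 of 50 changes of 8-fold and 8 of 50 of 32-fold. A gene that was not called may therefore still differ. Alternatives were DESeq2 1.42.0, limma-voom (limma 3.58.1), library totals, RLE factors, other count filters, a table without Rn45s, Lars2 and ribosomal protein genes, each library left out, A and P alone, and no region term.

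Full values were given for members called in a contrast, the 3 with the smallest p in each direction of each contrast, those with a log2 ratio of 3 or more in size in a region over 30 or more counts, and a fixed set of well-known imprinted genes. Others are named as neighbours or as examples chosen after their values were seen. All 48 symbols matched RefSeq on GRCm38.p6, where 25 overlap another gene of the table and 15 another member.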

Additional observations from a re-analysis of the deposited data

Results flagged for a closer look

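Igf2, Cdkn1c and Peg3 were higher with EPZ005687 in A and P and lower in ExE, with counting intervals that exclude 0. The log2 ratio of EPZ005687 over DMSO for Igf2 was 2.94 in A, 0.78 in P and -0.93 in ExE. For Cdkn1c it was 3.59 in A, 0.46 in P and -1.84 in ExE. For Peg3 it was 1.10 in A, 0.34 in P and -1.98 in ExE. Each value is 1 library against 1, so these opposite directions were not tested within regions; in the fit of the treatment effect in ExE against the embryonic part the edgeR adjusted p was 1 for each of the 3. With library totals as the scaling none of these 9 ratios changed sign, though those in ExE were nearer to 0, at -0.22 for Igf2, -1.14 for Cdkn1c and -1.29 for Peg3. Of 12 visceral endoderm markers, 11 were higher with EPZ005687 in A, 5 in P and 1 in ExE (median log2 ratios 3.55, -0.16 and -1.06). Of 10 parietal endoderm markers, 7, 5 and 0 were (medians 0.74, -0.03 and -1.995). The part of these cells in the 3 genes was not tested.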

How the results depend on the processing

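Of the genes called with EPZ005687, Igf2r passed under all 15 alternatives, Peg12 under 14 and Impact under 10. The number of imprinted genes called lay between 2 and 6 when single libraries were left out; without P DMSO it was 6, with H19 (edgeR adjusted p = 0.037), Mest (0.018) and Nnat (0.027) added. For ExE versus embryonic the number was 0, against 4 with DESeq2, 2 with limma-voom and 5 with no count filter, and between 0 and 6 when single libraries were left out (6 without A EPZ005687, 5 in the absence of P DMSO, 3 in the absence of ExE EPZ005687). For P versus A it was 0, against 4 with DESeq2 and 3 with no count filter, and between 0 and 6 when single libraries were left out (6 with P DMSO left out, 5 with A EPZ005687, 4 with ExE DMSO, 3 with ExE EPZ005687 and 1 with P EPZ005687). Phlda2 was called in P versus A under 7 alternatives and in ExE versus embryonic under 4. Where these counts rose, the share of all genes called rose as well, to between 0.125% and 2.86% where it was 0%; the cause was not tested. For the difference in treatment effect the number was 0 under every alternative that could be fitted; with a library left out no residual degree of freedom remained. Among the values of the single genes given in the text, the medians over the tested imprinted genes and the ratios within regions, 1312 kept their side of the threshold or moved less than their error, 148 moved more, 57 passed only under the alternative and 15 no longer passed (9 of Zfp57, 5 of Impact and 1 of Peg12); none that had passed turned direction. Library totals shifted the median of all genes from 0.20 to 0.63 in the treatment comparison. With 1000342 counts in the smallest library and 2 residual degrees of freedom, changes of genes with few counts are the least certain. No paired analysis was possible by replicate number because every library is replicate 1 of its group; the arms are paired by region through the region term of the fit, and without that term 2 imprinted genes (Igf2r and Impact) passed.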
